A study of Homo sapiens with 2 samples.

Results

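The regions described here are 1545 PARP1 peaks that lie away from gene starts and have no PRMT6 peak on them, out of 11651 peaks in the PARP1 list. They were selected on 3 values. The PARP1 score, a column without a header that was read from its values as the −log10 of the p-value given by the peak caller, was 6.5 or more, no PRMT6 peak shared 1 bp or more with the peak, and the 5′ end of every annotated gene of any biotype was more than 3 kb away. Of the 11651 peaks, 11635 lay on chromosomes 1 to 22 and X, 5657 of these reached the score, 2491 of these had no PRMT6 overlap, and 1545 of these were distal. Score, overlap and the 3 kb limit therefore describe the choice of the peaks and are not findings about them. They are called PARP1-only distal peaks below, although absence from the PRMT6 list says only that no PRMT6 peak was listed there.

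The study mapped where PRMT6 and PARP1 sit in the genome of MDA-MB-231, a human cell line from a triple-negative breast cancer, with a basal and mesenchymal character. There were 2 libraries, 1 with an antibody against PRMT6 and 1 with an antibody against PARP1. The labels give the same culture conditions for both and name no genotype change or drug, and the read depth is not part of the lists. With 1 library per antibody there was no replicate check and no test. The intervals given are 95% exact (Clopper-Pearson) intervals for shares and order-statistic intervals for medians, and both cover only counting error, with each peak taken as independent.

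PARP1 is a nuclear enzyme that attaches chains of ADP-ribose to proteins, best known for its response to DNA breaks, and it also binds nucleosomes and takes part in transcription. PRMT6 methylates arginines, among them an arginine near the tip of histone H3. Distal regulatory elements such as enhancers lie within introns or between genes, bind transcription factors and can act on a promoter far along the chromosome. In basal breast cancer cells, AP-1 (the FOS and JUN family) and the TEAD factors with their partner YAP are known for occupying many such elements.

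Some of these peaks are distal to the annotated 5′ end of their gene but sit at a further transcript start in RefSeq, and their sequence can be shown. RefSeq start windows, 250 bases before and 50 bases after a start, were overlapped by 34 PARP1-only distal peaks, which touched 38 windows of 34 genes. In 23 of the 34 the peak spanned the start itself. A peak covered 44 to 300 of the 300 bases of a window, so a word in capitals can lie outside it. Shown first are the 250 upstream bases for the 5 highest-scoring of these peaks, in GRCh38.p14, 5′ to 3′ on the strand of the gene. Capitals mark 3 short words on either strand: TGANTCA, the word AP-1 factors bind, GGGCGG, the GC box, and CCAAT, the word of the NF-Y factor.
CNTRL, chr9:121121520-121121769, plus strand: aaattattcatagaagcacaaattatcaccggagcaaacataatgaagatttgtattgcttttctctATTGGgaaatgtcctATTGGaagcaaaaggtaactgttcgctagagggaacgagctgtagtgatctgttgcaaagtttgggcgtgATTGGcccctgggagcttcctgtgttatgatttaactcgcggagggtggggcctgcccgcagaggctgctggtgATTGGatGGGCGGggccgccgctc
CREB5, chr7:28685883-28686132, plus strand: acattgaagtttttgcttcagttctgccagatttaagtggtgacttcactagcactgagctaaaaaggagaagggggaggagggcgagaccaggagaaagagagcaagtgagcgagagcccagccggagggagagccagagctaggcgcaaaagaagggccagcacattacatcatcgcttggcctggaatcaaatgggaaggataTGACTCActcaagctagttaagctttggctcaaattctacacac
CD59, chr11:33722728-33722977, minus strand: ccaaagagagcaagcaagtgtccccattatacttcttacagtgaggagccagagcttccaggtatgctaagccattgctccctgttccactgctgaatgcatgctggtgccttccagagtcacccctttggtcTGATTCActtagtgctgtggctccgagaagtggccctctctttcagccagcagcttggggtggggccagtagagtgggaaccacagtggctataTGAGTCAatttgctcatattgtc
CBX5, chr12:54259546-54259795, minus strand: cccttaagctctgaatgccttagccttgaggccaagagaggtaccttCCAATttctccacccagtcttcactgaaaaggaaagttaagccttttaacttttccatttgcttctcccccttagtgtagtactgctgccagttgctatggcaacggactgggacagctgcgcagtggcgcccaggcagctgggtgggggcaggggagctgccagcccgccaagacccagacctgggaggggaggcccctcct
LOC105378678, chr1:41432950-41433199, plus strand: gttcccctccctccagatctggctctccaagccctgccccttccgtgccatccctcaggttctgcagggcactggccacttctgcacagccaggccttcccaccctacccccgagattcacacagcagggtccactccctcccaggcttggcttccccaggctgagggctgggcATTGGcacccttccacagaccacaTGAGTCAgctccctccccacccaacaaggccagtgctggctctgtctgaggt

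The peak at CNTRL, a centrosome protein gene, had a score of 12.2 at a start 46815 bp inside the gene, and its window held CCAAT at 4 places and GGGCGG at 1. The peak at CREB5, a transcription factor gene of the CREB family, had a score of 11.7 and marked a start 386812 bp inside the gene, with TGACTCA in the upstream bases. CD59 encodes a surface protein that blocks complement. Its peak scored 11.4, and the window held 2 copies of TGANTCA, 1 as TGATTCA and 1 as TGAGTCA. The peak at CBX5, the gene of heterochromatin protein HP1 alpha, scored 11.4 and the peak at the long noncoding RNA LOC105378678 scored 11.3. In the windows shown, these peaks covered 115 and 116 of the 300 bases, and the words marked at CBX5 and LOC105378678 lie outside them. CD59 and LOC105378678 had few CpG dinucleotides, 0.0513 and 0.0746 of the number expected from their base content, and CNTRL had 0.686.

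TGANTCA stood in the upstream bases of 2 further windows, shown here because they share that word with CREB5, CD59 and LOC105378678, and chosen after their sequence was seen. SHC1 encodes an adaptor of receptor tyrosine kinases, and its peak had a score of 7.27. RCAN1 encodes a regulator of the phosphatase calcineurin, and its peak had a score of 6.65.
SHC1, chr1:154970748-154970997, minus strand: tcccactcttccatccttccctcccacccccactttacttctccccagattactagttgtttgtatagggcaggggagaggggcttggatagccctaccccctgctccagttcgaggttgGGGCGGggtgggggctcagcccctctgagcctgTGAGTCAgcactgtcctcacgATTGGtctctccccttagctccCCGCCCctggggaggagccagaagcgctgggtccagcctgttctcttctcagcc
RCAN1, chr21:34526823-34527072, minus strand: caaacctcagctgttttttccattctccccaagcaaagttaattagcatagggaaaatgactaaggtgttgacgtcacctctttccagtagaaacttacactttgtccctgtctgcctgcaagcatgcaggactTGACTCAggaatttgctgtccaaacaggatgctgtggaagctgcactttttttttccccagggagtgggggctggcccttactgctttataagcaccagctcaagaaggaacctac

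Counted over the whole 300-base windows and both strands, TGANTCA was in 6 of the 38 windows (15.8%, 6.02% to 31.3%), against 7.68% of all 34961 RefSeq windows and 9.59% of the 4849 windows more than 3 kb from the 5′ end of their own gene. The other words are given with the shares of the same 2 backgrounds, all windows and then those far from their own 5′ end. CCAAT was in 52.6% (35.8% to 69.0%), against 34.6% and 32.8%, and GGGCGG in 55.3% (38.3% to 71.4%), against 45.0% and 34.6%. CCGGAAG, a word of ETS factors, was in 18.4% (7.74% to 34.3%), against 10.3% and 5.88%. GGAATG, the TEAD word, was in 15.8%, against 14.0% and 14.7%, and TATAAA in 7.89%, against 11.5% and 13.2%. AGATAA was in 2.63%, against 10.3% and 12.4%, and CACGTG, the E-box bound by clock factors, in 2.63%, against 7.27% and 5.67%. Against all windows the interval of CCAAT alone left out the background share, and against the windows far from their own 5′ end those of CCAAT, the GC box and the ETS word did. In the 97 windows under PRMT6-overlapped peaks, distal PARP1 peaks of the same score limit with a PRMT6 peak on them, TGANTCA was in 16.5%. CCAAT was there in 55.7% and GGGCGG in 68.0%. In the 54 windows under distal PARP1 peaks of lower score without PRMT6, TGANTCA was in 18.5%, CCAAT in 31.5% and GGGCGG in 48.1%. Both of these TGANTCA shares lie inside the interval of the 38 windows. Some of the 38 windows overlap each other. The median GC content of the 38 windows was 59.2% (56.0% to 63.3%), against 58.7% in all windows and 54.0% in those far from their own 5′ end. A match is a description of letters and not a binding site, and it can lie in a part of the window that the peak does not cover.

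Such further starts were less frequent under PARP1-only distal peaks than under distal PARP1 peaks of the same score limit that overlapped PRMT6. The latter number 1230 and are called PRMT6-overlapped distal peaks below. The window table holds none for chromosome 8, which carries 97 of the 1545 peaks, so these shares leave it out. A further start was at 34 of 1448 PARP1-only distal peaks (2.35%, 1.63% to 3.27%), at 83 of 1175 PRMT6-overlapped distal peaks (7.06%, 5.67% to 8.68%) and at 48 of 3118 distal PARP1 peaks of lower score without PRMT6 (1.54%, 1.14% to 2.04%). The PRMT6-overlapped peaks have higher scores, so the comparison was repeated among scores from 6.5 to 10, where the shares were 2.36% (1.57% to 3.39%) and 7.52% (5.49% to 9.99%).

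The score of the PARP1-only distal peaks lay between 6.55 and 28.5, with a median of 7.90 and quartiles of 7.06 and 9.28. By rank among all 11651 PARP1 peaks they fell between 66 and 5654, with a median rank of 3721, a range that follows from the score limit. The PRMT6-overlapped distal peaks had a median score of 10.2 and the 3311 weaker distal peaks without PRMT6 a median of 5.12. Together 2775 distal PARP1 peaks reached the score, and 55.7% of them (53.8% to 57.5%) had no PRMT6 peak. That share rests on the score limit and the overlap of the rule. At scores of 5 or more, 3329 distal peaks had no PRMT6 peak and 1550 were PRMT6-overlapped. At 10 or more the counts were 278 and 632. Just inside the threshold, at a score of 6.55, were peaks inside PAK6, HS1BP3 and TPRA1. With them were a peak 10021 bp from IRF2BP2 and a peak 241479 bp from SOX9, its nearest coding gene. Just outside it, at 6.49, were 5 peaks inside or near COL5A1, AGTPBP1, AGO2 and ASAP1. The 5 peaks on either side tie at their score and were taken by chromosome order, so further peaks can share these scores.

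The highest-scoring region, chr3:57969792-57970185, had a score of 28.5 at rank 66 and lay over the noncoding record LOC105377104. Next came chr19:5309054-5309510 inside PTPRS, a receptor tyrosine phosphatase gene, with a score of 28.3 at rank 70. The third, chr1:16905321-16905729, scored 22.3 and lay 8356 bp from CROCC, the gene of the ciliary rootlet protein rootletin. It is close to a listed PRMT6 peak, with a gap of 151 bp. A peak at chr7:2874140-2874608, 29832 bp from the G protein subunit gene GNA12, scored 19.1, and a peak at chr5:132094603-132095046, 20814 bp from the cytokine gene CSF2, scored 17.9. Others of the leading 20 lay inside RPH3A (19.8), MOGAT1 (17.4), PFDN1 (16.1) and SLC22A5 (15.7), genes of vesicle traffic, lipid synthesis, protein folding and carnitine uptake, and near ENAH, an actin regulator (16.3). Of the leading 20 regions, 5 lay inside a protein-coding record, 5 only inside another record such as LINC02227 or EPCAM-DT, and 10 outside gene records. Their scores were 15.7 or more and their widths 290 to 595 bp, and 10 of the 20 were more than 50 kb from any PRMT6 peak.

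PARP1-only distal peaks were narrower than PRMT6-overlapped ones. Their median width was 276 bp (273 to 281), against 356.5 bp (349 to 365), and among scores from 6.5 to 10 it was 265 bp (260 to 269) against 308 bp (302 to 320). The smallest width in the list, 200 bp, was taken by 10.0% (8.58% to 11.6%) of them, by 1.87% of the PRMT6-overlapped peaks and by 61.6% of the weaker peaks. Width moves with the score, and its part in the other differences was not tested. The widest, at chr9:97876839-97877589, spanned 750 bp and lay 23613 bp from FOXE1, a forkhead factor gene. The next were a 741 bp peak in HS1BP3 and a 724 bp peak 27973 bp from F2RL1, a protease-activated receptor gene.

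A protein-coding gene record held 51.5% of the PARP1-only distal peaks (795 of 1545, 48.9% to 54.0%). The share was 59.1% (56.3% to 61.9%) among PRMT6-overlapped distal peaks and 54.2% (52.5% to 55.9%) among weaker ones without PRMT6. Among scores from 6.5 to 10 the difference from the PRMT6-overlapped peaks was wider, 51.9% (49.1% to 54.6%) against 64.4% (60.4% to 68.2%). A further 11.9% (10.3% to 13.6%) lay only inside noncoding or pseudogene records, against 7.64% (6.22% to 9.27%). The remaining 36.6% (34.2% to 39.1%) were outside every record, against 33.3% (30.6% to 36.0%), where the intervals overlap. Exons and introns were not separated here. Within coding records the peaks were spread along the gene, at a median of 50.2% (46.3% to 53.9%) of the way from the 5′ end.

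**Figure D1:**
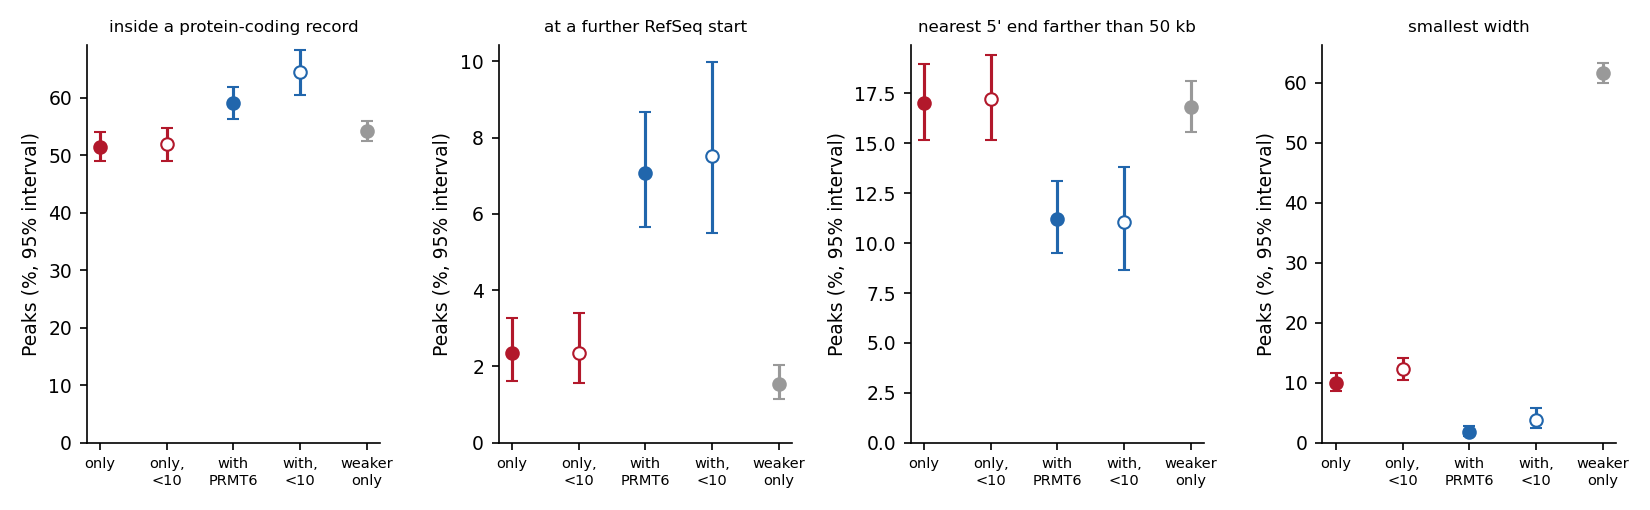
Shares of distal PARP1 peaks (percent, vertical axes) with 4 features: inside a protein-coding record, at a further RefSeq start, nearest 5′ end farther than 50 kb, and smallest width. Points are PARP1-only peaks (only), PRMT6-overlapped peaks (with PRMT6) and weaker peaks without PRMT6 (weaker only), open points are scores from 6.5 to 10, and bars are 95% exact intervals; PARP1-only peaks sit at 51.5% inside coding records and PRMT6-overlapped peaks at 59.1%.

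Seen from the gene starts, the PARP1-only distal peaks lay farther out than the PRMT6-overlapped ones. The median distance to the nearest 5′ end of any gene was 17028 bp (15852 to 18182), against 14674 bp (13648 to 15660), and among the weaker peaks it was 17793 bp (16904 to 18583). In the band of scores from 6.5 to 10 the difference was smaller, with medians of 16961 bp (15607 to 18168) and 15668 bp, the latter inside the interval of the former. By distance, 31.9% lay within 10 kb, 51.1% between 10 and 50 kb, 16.4% between 50 and 200 kb, and 10 peaks beyond 200 kb. More than 50 kb from every 5′ end were 17.0% (15.2% to 19.0%), against 11.2% (9.51% to 13.1%) of the PRMT6-overlapped and 16.8% (15.6% to 18.1%) of the weaker peaks. The nearest 5′ end was that of a long noncoding RNA in 39.2% (36.7% to 41.6%), against 32.8% (30.1% to 35.5%), and that of a protein-coding gene in 34.0% (31.7% to 36.5%), against 41.4% (38.6% to 44.2%). The farthest peak, chr1:125173885-125174213, was 3654773 bp from any 5′ end, followed by chr5:49601466-49601752, 841593 bp from EMB. No filter for repeated sequence was applied, and whether the places of such remote peaks are reliable was not tested.

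The surroundings of the PARP1-only distal peaks also held fewer genes. Within 500 kb of the peak centre there was a median of 7 protein-coding 5′ ends (7 to 8), against 10 (10 to 11) around the PRMT6-overlapped peaks and 7 (7 to 8) around the weaker ones. Among scores from 6.5 to 10 the medians were 7 (7 to 8) and 10 (9 to 11). No protein-coding start lay within 500 kb of 3.04% (2.24% to 4.02%) of them, against 1.46% (0.870% to 2.30%).

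**Figure D2:**
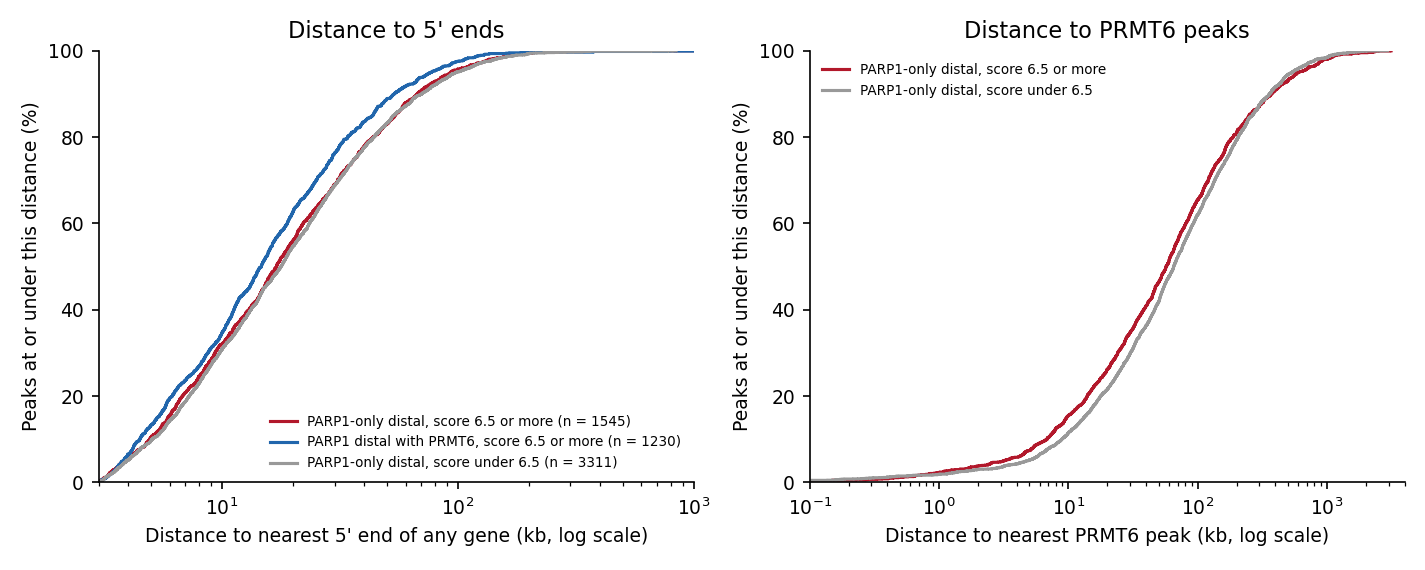
Cumulative share of distal PARP1 peaks (percent, vertical axes) by distance in kb on a logarithmic axis, to the nearest 5′ end (left, all 3 sets) and to the nearest PRMT6 peak (right, the sets without PRMT6). The PARP1-only peaks reach a median of 17028 bp from a 5′ end and 57198 bp from a PRMT6 peak, and the weaker peaks without PRMT6 reach 17793 and 65360 bp.

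The rule bars only overlap, so the distance to PRMT6 beyond that was free to vary. The median distance from a PARP1-only distal peak to the nearest PRMT6 peak was 57198 bp (52532 to 62263), and for the weaker peaks without PRMT6 it was 65360 bp (61664 to 68973). A PRMT6 peak lay within 10 kb of 15.4% (13.6% to 17.3%), against 11.4% (10.3% to 12.5%) of the weaker peaks, and more than 100 kb away from 34.6% (32.2% to 37.0%), against 38.1% (36.4% to 39.8%). Near misses of the rule were few. A PRMT6 peak stood within 1 kb of 34 of the 1545 (2.20%, 1.53% to 3.06%), with a median gap of 506 bp, and within 100 bp of 4. Of the 34 PRMT6 peaks concerned, 16 had the smallest PRMT6 width of 288 bp, and their own scores lay between 3.12 and 14.6, with 6.17 as the median.

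The closest near misses had gaps of 3, 5 and 6 bp. They were chr14:55108192-55108411 outside gene records, chr1:22832322-22832558 inside EPHB2, an ephrin receptor gene, and chr19:10749019-10749253 inside DNM2, the gene of the membrane scission enzyme dynamin 2. At the other end, a peak at chr4:190177774-190177980 in DUX4 was 3138110 bp from the nearest PRMT6 peak. DUX4 belongs to a repeated array with near-identical copies, so the place of that peak is uncertain. A peak at chr3:72339120-72339455, 107168 bp from the Polycomb-linked gene RYBP, was 3095800 bp from PRMT6.

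Most of the peaks stood alone. With neighbours within 10 kb joined, 1440 were single, 48 pairs formed and 3 groups held 3 peaks each. Another PARP1-only distal peak was within 10 kb of 6.80% (5.59% to 8.17%), against 8.78% (7.26% to 10.5%) for neighbours of their own kind among PRMT6-overlapped peaks, where the intervals overlap. Any PARP1 peak was within 10 kb of 24.1% (21.96% to 26.3%), against 28.5% (25.9% to 31.1%) and, for the weaker peaks, 15.8% (14.6% to 17.1%). The groups of 3 lay in PRRX2, a homeobox gene of mesenchyme, over PVT1, a long noncoding RNA, and at chr16:46394496-46401506 outside gene records, 219873 bp from SHCBP1. Repeated sequence was not filtered out, and whether the chromosome 16 group lies in such sequence was not tested. The PRRX2 peaks had scores of 7.65, 6.59 and 6.71. The pair near GNA12 spanned only 993 bp, with scores of 19.1 and 13.6, and the pair near CSF2 had 17.9 and 10.97. No PRMT6 peak lay between the members of any of these 5 groups.

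Along the genome there were 0.510 PARP1-only distal peaks per Mb, against 0.406 PRMT6-overlapped ones. The densest chromosomes were 19, with 0.836 per Mb, and 10, with 0.815, and the sparsest was X, with 0.135. The share of strong distal PARP1 peaks without PRMT6 differed between chromosomes. It was above the 55.7% of all chromosomes, by an interval that excludes it, on chromosome 2 (63.4%, 57.2% to 69.3%), chromosome 4 (71.6%, 59.9% to 81.5%) and chromosome 5 (66.5%, 59.1% to 73.3%). It was below on chromosome 17 (34.7%, 27.04% to 43.0%), chromosome 19 (35.0%, 27.1% to 43.5%) and chromosome 20 (43.6%, 33.4% to 54.2%). The intervals were taken chromosome by chromosome without adjustment, and the share rests on the score and overlap of the rule. Whether it follows the gene density of the chromosomes was not tested.

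**Figure D3:**
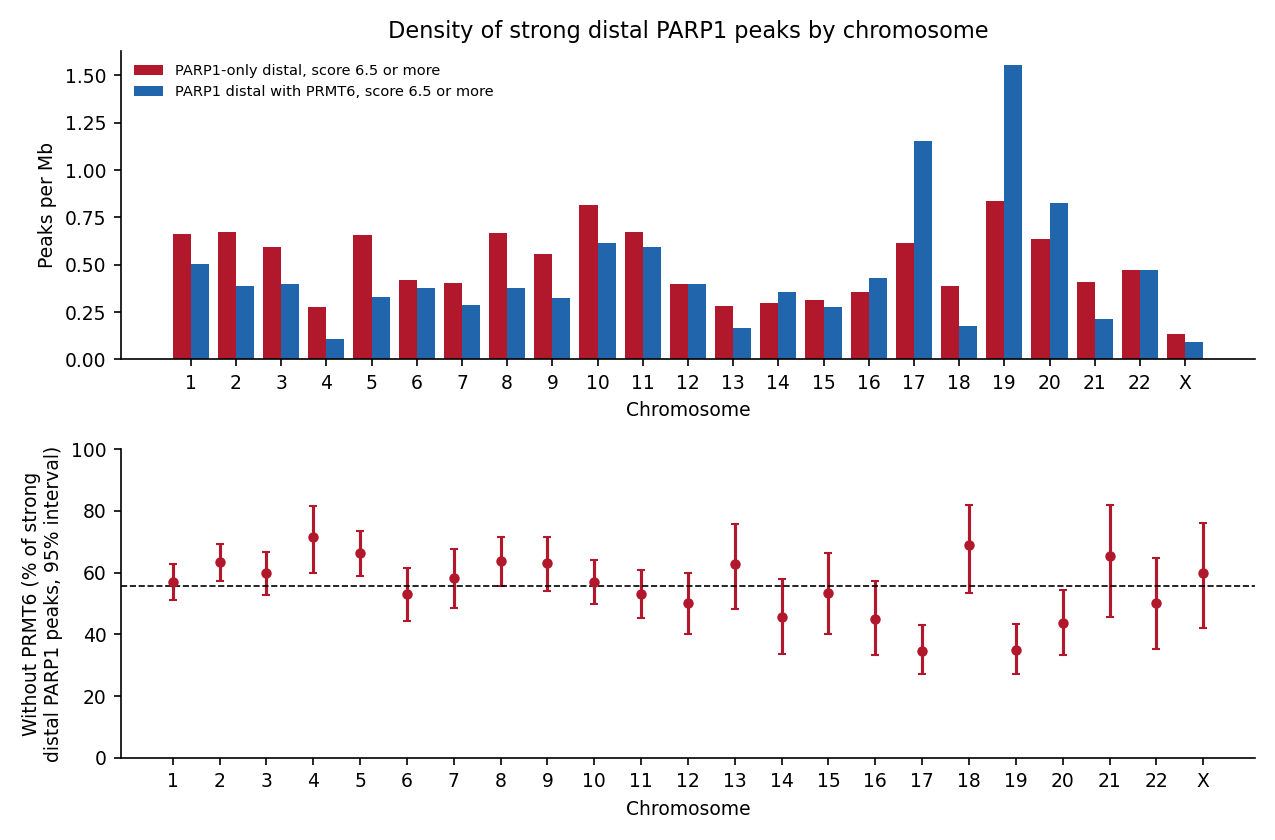
By chromosome, PARP1-only and PRMT6-overlapped distal peaks per Mb (bars, upper panel) and the share of distal PARP1 peaks of score 6.5 or more that have no PRMT6 peak (percent, points with 95% exact intervals, lower panel), with 55.7% as a dashed line. Chromosomes 2, 4 and 5 lie above the line and 17, 19 and 20 below it with intervals that leave it out.

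Counted by gene, 704 of 19974 protein-coding records (3.52%) held at least 1 PARP1-only distal peak. These genes were long, with a median of 122 kb against 24.2 kb for all coding records, and among the 3351 records over 100 kb the share was 12.1% (407 genes). Among records up to 20 kb the share was 0.412%, and among those over 500 kb it was 20.1% (15.8% to 24.9%). For PRMT6-overlapped distal peaks these shares were 0.646% and 9.87% (6.81% to 13.7%). In records of 200 to 500 kb the shares were 14.6% (12.6% to 16.8%) and 9.43% (7.75% to 11.3%), and in records of 20 to 50 kb they were 2.43% (2.01% to 2.91%) and 3.34% (2.84% to 3.89%). Per Mb of record the PARP1-only peaks had their highest density, 0.816, in records of 100 to 200 kb, while the PRMT6-overlapped peaks had theirs, 1.11, in records of 20 to 50 kb. Both had their lowest density in records over 500 kb, 0.298 and 0.145 per Mb. A longer record offers more bases beyond 3 kb of its own start, whose part in these shares was not tested. Both kinds of peak were held by 110 genes, 15.6% of the 704 genes with PARP1-only peaks. These were 17.3% of the 637 genes with PRMT6-overlapped ones. Beside that 17.3%, PARP1-only peaks were held by 3.52% of all 19974 coding records and 12.1% of those over 100 kb. The part of record length in this overlap was not tested.

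**Figure D4:**
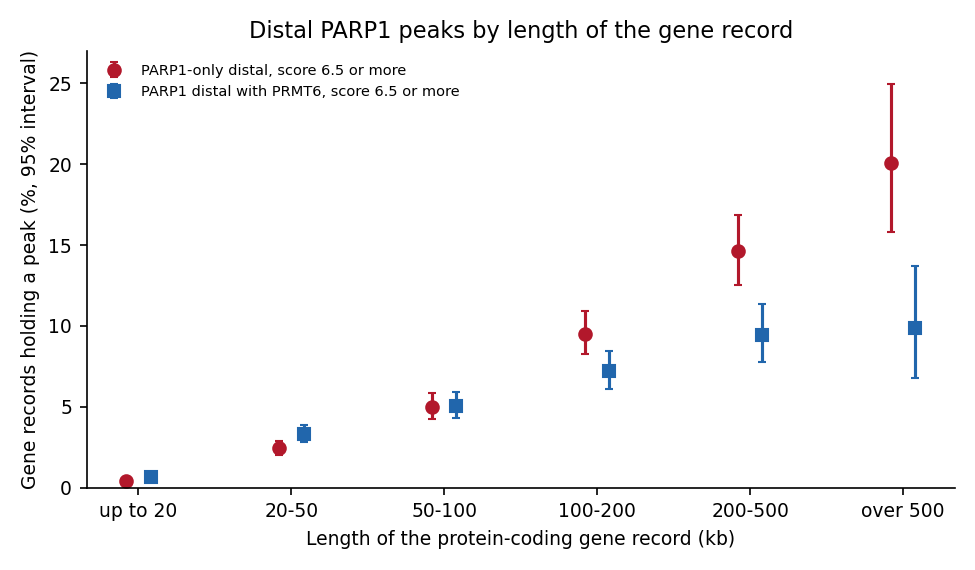
Share of protein-coding gene records that hold at least 1 distal PARP1 peak (percent, vertical axis) by record length in kb, for PARP1-only peaks (circles) and PRMT6-overlapped peaks (squares), with 95% exact intervals as bars. The PARP1-only share climbs to 20.1% over 500 kb and the PRMT6-overlapped share to 9.87%, while the peaks per Mb of record (not drawn) are lowest there, 0.298 and 0.145.

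Most of these genes, 620, held 1 peak, while 71 held 2, 11 held 3, SHB held 4 and GNG7 held 5. The 5 peaks in GNG7, a G protein gamma subunit gene of 191 kb on chromosome 19, had scores of 9.59, 8.06, 8.25, 7.89 and 9.15, and the GNG7 record also held 1 PRMT6-overlapped distal peak. SHB, an adaptor with an SH2 domain, had peaks of 7.96, 8.16, 7.31 and 6.82. Both hexokinase genes of the first step of glycolysis were among the leading 10, HK2 with peaks of 7.93, 8.66 and 7.67 and HK1 with 8.36, 7.54 and 6.82. The nearest PRMT6 peak to those in HK2 was 191012 bp away or more, and to those in HK1 63168 bp or more. KIAA1217 held peaks of 7.67, 11.2 and 11.7, and MAP3K13, a kinase of stress signaling, held 7.06, 7.77 and 11.1. ERGIC1, ATXN7L1, RASAL2 and DNM2 also held 3 peaks each, as did HS1BP3, PRRX2 and CCNY, which come after the leading 10 only by their lower summed score. For KIAA1217, a record of 853 kb, 3 peaks amount to 0.352 per 100 kb, and for HK2, a record of 59.2 kb, to 5.06.

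The promoters of the nearest coding genes carried PARP1 or PRMT6 peaks about as often as coding genes in general. A PARP1 peak within 3 kb of the 5′ end was present for the nearest coding gene of 24.3% (22.2% to 26.6%) of the PARP1-only distal peaks, against 22.3% of all coding genes, and a PRMT6 peak for 17.1% (15.2% to 19.1%), against 18.1%. Neither was listed for 72.0% (69.7% to 74.3%), against 72.9% of all coding genes and 65.0% for PRMT6-overlapped distal peaks. Nearest genes of PRMT6-overlapped distal peaks had a PARP1 promoter peak in 29.1% (26.6% to 31.7%) and a PRMT6 promoter peak in 23.1% (20.8% to 25.5%). The nearest gene is a convention and need not be the one an element acts on.

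As a gene group view, each peak was given to the coding gene with the nearest 5′ end, which made 1294 of 19974 coding genes (6.48%) nearest to at least 1 PARP1-only distal peak. Genes with wide empty flanks are reached more often under this convention, so the peaks per Mb of territory, the stretch nearest to the genes of a list, are given beside the share, with 0.508 per Mb for all coding genes. AP-1 and immediate-early genes, which respond within minutes to growth factors and stress, were nearest to a peak in 13 of 32 cases (40.6%, 23.7% to 59.4%; 2.07 per Mb). YAP and TEAD pathway genes were nearest in 12 of 30 (40.0%, 22.7% to 59.4%; 1.79 per Mb), and cell adhesion and actin genes in 14 of 40 (35.0%, 20.6% to 51.7%; 1.71 per Mb). Core clock genes were nearest in 7 of 25 (28.0%, 12.1% to 49.4%; 2.16 per Mb) and basal and mesenchymal breast genes in 9 of 40 (22.5%, 10.8% to 38.5%; 1.21 per Mb). The shares for PRMT6-overlapped distal peaks were 37.5%, 50%, 45%, 12% and 32.5% in the same order, beside 5.30% of all coding genes, and for the weaker peaks 40.6%, 43.3%, 42.5%, 28% and 47.5%, beside 12.7%. In each of the 5 lists the interval for PRMT6-overlapped peaks overlaps that for PARP1-only peaks, and for the clock genes the counts were 3 and 7 of 25.

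Other lists had lower shares, with intervals that contain the 6.48% of all coding genes. Luminal breast genes were nearest in 5 of 30 (16.7%, 5.64% to 34.7%; 0.904 per Mb), and their interval overlaps that of the basal and mesenchymal list. Wnt signaling genes were nearest in 6 of 50 (12%, 4.53% to 24.3%; 0.640 per Mb) and long neuronal genes in 4 of 40 (10.0%, 2.79% to 23.7%, but only 0.0605 per Mb). For DNA repair genes it was 3 of 50 (6.00%, 1.25% to 16.5%; 0.582 per Mb). No cell cycle gene of 50 and no ADP-ribosylation gene of 25 was nearest to one, which allows shares of up to 7.11% and 13.7%.

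**Figure D5:**
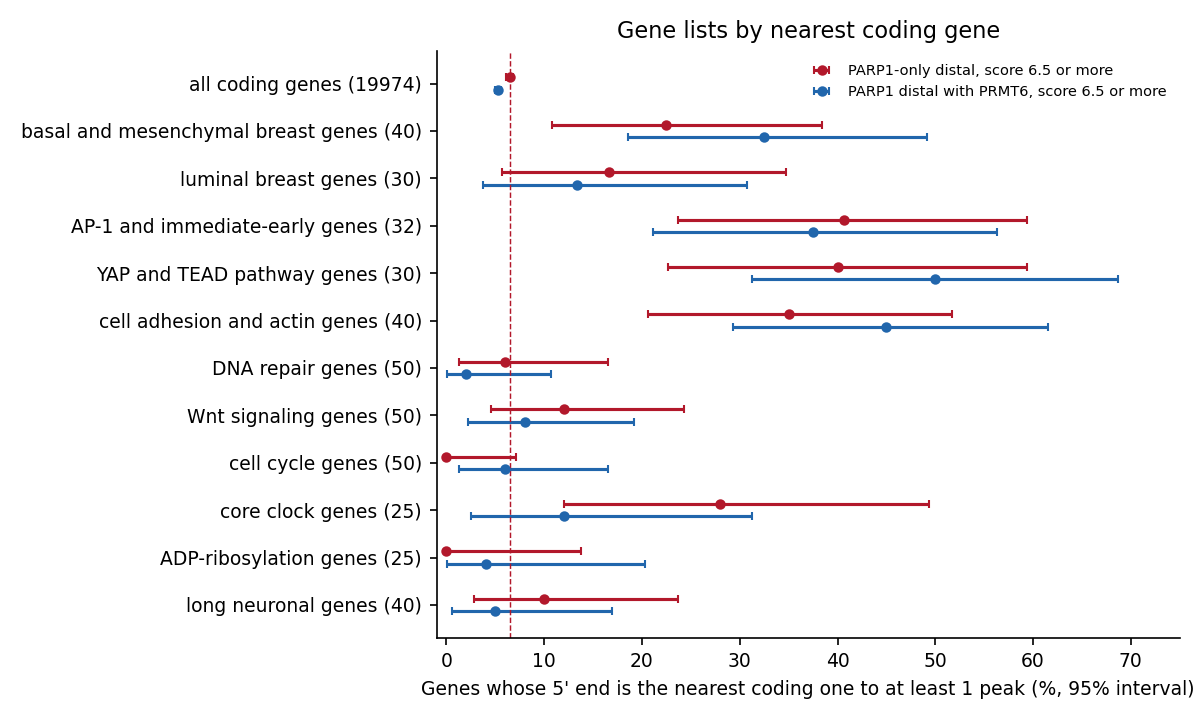
Share of the genes of each list whose 5′ end is the nearest coding one to at least 1 PARP1-only distal peak (percent, horizontal axis), with 95% exact intervals as bars, beside the same for PRMT6-overlapped distal peaks, with a dashed line at the value of all coding genes. AP-1 and immediate-early genes stand at 40.6%, cell cycle genes at 0 and all coding genes at 6.48%.

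Among the AP-1 and immediate-early genes, DUSP1, a phosphatase that switches off MAP kinases, had 4 peaks, at 6368, 18792, 30011 and 30148 bp from its 5′ end with scores of 8.87, 7.21, 12.5 and 7.19. The DUSP1 peak of 12.5 was 659 bp from a PRMT6 peak, and the others were 6745 to 11895 bp from the nearest. IER5, an early response gene, had peaks of 15.4 at 23755 bp and 8.64 at 52748 bp. SPRY4, an inhibitor of receptor kinase signaling, had 13.1 at 73357 bp and 8.14 at 121132 bp. DUSP5 had 9.46 at 32362 bp, the AP-1 subunit gene JUND had 9.15 at 19568 bp and the stress-induced factor gene ATF3 had 7.77 at 3602 bp. None of the 32 genes held a peak inside its record, and these records are short, with a median of 7.06 kb.

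Of the YAP and TEAD pathway genes, AMOTL1, which encodes an angiomotin that binds YAP, held a peak of 14.7 inside its record, 88017 bp from the 5′ end and 300318 bp from PRMT6. ANKRD1 had peaks of 12.9 at 9972 bp and 10.5 at 39379 bp, and the first of these was 331 bp from a PRMT6 peak. CCN1, a secreted matrix protein gene and a common YAP target, had 12.9 at 31093 bp, and FJX1 had 12.2 at 5232 bp. VGLL3, a TEAD cofactor gene, had 11.4 at 197004 bp, and the coagulation factor gene F3 had 10.7 at 104449 bp. Inside their records, MYOF held 2 peaks and TGFB2, PTPN14, CRIM1 and AMOTL2 held 1 each, so 6 of 30 genes (20%, 7.71% to 38.6%) held a peak, beside 3.52% of all coding records and 12.1% of those over 100 kb. PRMT6-overlapped distal peaks were held by 10 of the same 30 genes (33.3%).

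Adhesion and actin genes held peaks in 11 of 40 records (27.5%, 14.6% to 43.9%), beside 3.52% of all coding records. The records of the list were long, with a median of 115 kb. Of its 25 records over 100 kb, 8 held a peak (32%), beside 12.1% of all records over 100 kb. PRMT6-overlapped distal peaks were held by 14 of the same 40 genes (35%). Among them were the focal adhesion genes PXN and FHL2, with 2 peaks each, and PTK2, TNS3, ITGB5, LPP, ACTN1, ACTN4, DIAPH1 and DOCK5, with 1 each. The PTK2 peak scored 9.69, the TNS3 peak 8.92 and the ACTN1 peak 8.73. Of the 2 peaks in PXN, the gene of the focal adhesion scaffold paxillin, 1 was 523 bp from a PRMT6 peak, while those in FHL2 were 502296 bp or more away.

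The basal and mesenchymal genes TGFBI and ITGA3 held 2 peaks each, and EGFR, CD44 and LOXL2 held 1 each, so 5 of 40 (12.5%, 4.19% to 26.8%), beside 3.52% of all coding records and 25% of the same list for PRMT6-overlapped peaks. TGFBI, a matrix protein induced by TGF-beta, had scores of 14.3 and 6.84 inside its record and 12.4 and 9.97 upstream of it. The integrin gene ITGB1 had a peak of 15.3 at 52013 bp. The EGFR peak scored 9.05 and lay 736 bp from a PRMT6 peak. Of the 30 luminal genes GATA3 held a peak inside, with a score of 7.46, so 1 of 30 (3.33%, 0.0844% to 17.2%). That interval contains the 3.52% of all coding records and overlaps the interval of the basal and mesenchymal list. KRT7, a keratin gene, had 9.12 at 11024 bp.

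Clock genes were of interest to the study. Inside records, PER3 held a peak of 7.46, NR1D2 of 7.19 and CRY2 of 6.94, so 3 of 25 (12%, 2.55% to 31.2%), an interval that contains the 3.52% of all coding records. PER3 and CRY2 are repressors of the clock loop, and NR1D2 encodes the nuclear receptor REV-ERB beta. PER3, NR1D2 and CRY2 each also had a PARP1 peak and a PRMT6 peak within 3 kb of the 5′ end, as 13.3% of all coding genes did. The peaks inside them were 26052, 13108 and 13811 bp from the nearest PRMT6 peak. BHLHE40, a repressor of the E-box, had 12.3 at 7445 bp, 7.72 at 15468 bp and 7.32 at 237453 bp. CSNK1A1, a casein kinase gene that is also on the Wnt list, had 12.9 at 65038 bp, BHLHE41 8.47 at 28385 bp, NPAS2 7.10 at 51239 bp and CSNK1E 7.06 at 30120 bp. The nearest PRMT6 peak was 7432 bp from the BHLHE40 peak of 12.3 and 64848 bp from the CSNK1A1 peak.

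The DNA repair genes RAD51B, with peaks of 10.4 and 8.14, and RAD52, ERCC1 and PRKDC, with 7.66, 7.41 and 6.65, held peaks in 4 of 50 records (8%, 2.22% to 19.2%). Of the 50 Wnt genes only LGR4 held a peak, of 7.10 (2%, 0.0506% to 10.6%), and both intervals contain the 3.52% of all coding records. AXIN2, a feedback inhibitor of the Wnt pathway, had 11.1 at 171356 bp. The ADP-ribosylation list held 1 in 25 records (4%), in the chromatin remodeler gene CHD1L with 7.31, and the cell cycle list none of 50. Long neuronal genes held peaks in 5 of 40 records (12.5%, 4.19% to 26.8%), beside 20.1% of all coding records over 500 kb, since the median of the list was 1205 kb. They were NRG1 with 12.1 and 6.63, and CNTNAP2, NRXN3, DLG2 and CTNNA3 with 7.66 or less.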

How the data were processed

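PRMT6 and PARP1 were profiled in MDA-MB-231 cells, and the samples were grouped by the antibody in the labels. By the study's methods this was CUT&Tag (Tn5 transposase steered to its target by an antibody), while the labels also give a ligation protocol, so the library chemistry is uncertain. The submitters' processing notes name CASAVA 1.4, Bowtie 0.12.8, MACS and MACS2 without roles. The authors called peaks per library, and the deposited score was read, from its values, as the −log10 of the MACS p-value. Thresholds, duplicate handling and any control library are not given in the sources used here.

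The notes name hg19, but 61 PARP1 peaks, 5 of them among the described peaks, end past GRCh37 chromosome ends, so the lists were read as GRCh38. Coordinates are printed as listed. Gene records were those of RefSeq GRCh38.p14 on chromosomes 1 to 22 and X (59098, of which 19974 protein-coding), with 1 start each. Strand came from RefSeq tables for 28969 and GENCODE for 18791, and for 11338 without strand (300 of them coding) both ends counted as starts. RefSeq start windows were available for 82.1% of coding genes outside chromosome 8, and base content and words inside the peaks were planned but not analysed here for want of a genome of this build.

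Distances run from the nearest peak edge, and promoters span 3 kb on either side of a 5′ end. Work was done in Python 3.11.15 with numpy 2.4.6, pandas 2.3.3 and scipy 1.17.1, and distance code was tested on simulated data. The peaks and gene lists were chosen with earlier results of these data known. Regions were named by highest score, closeness to the threshold, width, distance and grouping, and genes by most peaks held, by list membership with a peak inside, and by up to 5 top nearest peaks per list. Names outside this rule are the PARP1-only peaks farthest from PRMT6 and the list genes with lower nearest peaks, chosen after their values were seen, and some list genes are counted but not reported one by one. Alternatives covered the score, the start distance, the gene set, the PRMT6 threshold, width, chromosome X and merging.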

Additional observations from a re-analysis of the deposited data

How the results depend on the processing

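Over 76 alternative values of the 6 main results, 57 stayed within 1.5 times the count or inside the interval of the reported value, and 19 moved. The number of PARP1-only distal peaks was 3329 at scores of 5 or more and 278 at 10 or more, beside 1550 and 632 PRMT6-overlapped ones. The share inside gene records was 60.1% at scores of 10 or more. The median distance to a 5′ end was 14589.5 bp with a limit of 1 kb, 27337 bp with 10 kb, 14409.5 bp with both ends of every record, 44434 bp with coding records only and 21596 bp with records of known strand only, a setting chosen after seeing the data. The share with a PRMT6 peak within 1 kb was 0.822% with only PRMT6 peaks of score 6.5 or more. The share with a neighbour was 8.71% at scores of 5 or more, 2.88% at 10 or more, 5.45% from 6.5 to 10, 8.66% with only PRMT6 peaks of score 6.5 or more and 20.1% with a 50 kb window. The share of smallest width was 32.0% at scores of 5 or more, 0% at 10 or more, 12.2% from 6.5 to 10, 11.9% with a limit of 10 kb and 8.17% with only PRMT6 peaks of score 6.5 or more. Settings that change the rule change which peaks are counted, and otherwise the cause was not tested. The order against PRMT6-overlapped distal peaks held in 50 of 52 comparisons and was lost for neighbours with only PRMT6 peaks of score 6.5 or more and for smallest width at scores of 10 or more. These comparisons leave out the share with a PRMT6 peak within 1 kb and the number of peaks. The order of the number was reversed at scores of 10 or more. No paired analysis was possible because there is a lone library for either antibody and no result comes from a test. The lists hold called peaks without depth, so a weaker PRMT6 signal under these peaks could not be measured.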

Other observations

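Some coding genes collected several PARP1-only distal peaks in their flanks, a view added after the values were seen. MYC, the growth-regulating transcription factor gene, was the nearest coding gene to 7, more than any other, at 7592 to 182263 bp from its 5′ end and with scores from 6.63 to 8.97. The last 3 of these are the group over PVT1. MYC was also nearest to 4 PRMT6-overlapped and 9 weaker distal peaks, and its territory of 1187 kb is the widest among the 10 genes with most such peaks. Next was LOC124904789 with 5, the peaks inside GNG7. TRIB1, a pseudokinase gene on the same chromosome, had 4, with scores from 6.78 to 9.13. TGFBI, DUSP1, SVIL, SLC45A1, ARHGAP21, TOMM20 and LOC128966717 also had 4 each. For ARHGAP21, 3 of the 4 lie inside the neighbouring KIAA1217, and the 4 near TOMM20 were 5993 to 9180 bp from a PRMT6 peak. The 4 peaks near SLC45A1, 25446 to 135441 bp from its 5′ end, were 48201 bp or more from any PRMT6 peak.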
